A study of Mus musculus with 72 samples.

Results

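The 9 genes Mbp, Mog, Opalin, Mag, Mobp, Cnp, Mal, Cldn11 and Ermn encode proteins of the myelin sheath and of the oligodendrocytes that make it. They were chosen as a list of symbols, matched to Ensembl identifiers, and each symbol had 1 of the 55401 genes in the deposited table of gene counts. All 9 passed the filter on low counts in both hippocampal regions. RNA came from dorsal hippocampus (DH) and ventral hippocampus (VH) of male mice of the C57BL/6 substrains labelled 6J (C57BL/6J) and 6NJ (C57BL/6NJ), whose ages were not given in the labels. The 3 conditions were the home cage, a cue alone, and shock with the cue (fear conditioning), with tissue taken 30 min after the last 2 of these. Each of the 12 combinations of region, label and condition had 6 libraries, which gives 72, and no transgene, drug or deletion is named in the labels.

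In the central nervous system, an oligodendrocyte wraps its membrane around axons in many turns. Mbp binds the inner faces of that membrane together and is the classic marker of compact myelin, with Mobp, another small basic protein, beside it. Mog and Mag sit on the outer and innermost surfaces of the sheath, Cldn11 forms its tight junctions, and Mal and Cnp serve membrane traffic and the cytoplasmic channels. Opalin and Ermn are found in differentiated oligodendrocytes, which arise from precursors that express Pdgfra and Cspg4 under control of Olig2, Sox10 and Myrf. Fewer cells of a type and less RNA per cell cannot be told apart in bulk tissue.

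The sequences before the members' starts were examined as a description. The members' RNA levels moved together across libraries, as described further on, and the part of these sequences in that was not tested. RefSeq promoter windows (GRCm38.p6) were found for 8 of the 9 genes, and the 250 bases before the start were searched on both strands. Motifs were ACAAAG and ACAATG, core letters of SOX sites, CTGGCAC and CTGGTAC, the letters of the MYRF motif, the E-box CAGCTG and the TATA box TATAAA. No searched motif contains another. The windows with a MYRF or ACAAAG match are shown for 5 genes, each 5′ to 3′ in the direction of the gene, with every match on either strand in capitals and without the bases that GENCODE annotates as exon. The Mog window is chr17:37023399-37023648, minus strand, and holds CTGGTAC on the opposite strand from 83 to 77 bases before the start. The Mag window, the most upstream of its 3 RefSeq windows, is chr7:30914923-30915172, minus strand, with ACAAAG on the opposite strand and CTGGCAC. The Cnp window is chr11:100574689-100574903, plus strand, with ACAAAG and CTGGCAC. The Opalin window is chr19:41077114-41077363, minus strand, with 1 ACAAAG. The Mobp window is chr9:120149492-120149706, plus strand, with 6 copies of ACAAAG, all on the opposite strand.
Mog: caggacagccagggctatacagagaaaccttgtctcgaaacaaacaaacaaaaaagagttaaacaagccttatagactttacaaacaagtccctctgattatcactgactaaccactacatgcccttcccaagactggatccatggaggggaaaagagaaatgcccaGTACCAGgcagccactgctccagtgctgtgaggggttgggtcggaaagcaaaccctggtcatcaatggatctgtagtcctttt
Mag: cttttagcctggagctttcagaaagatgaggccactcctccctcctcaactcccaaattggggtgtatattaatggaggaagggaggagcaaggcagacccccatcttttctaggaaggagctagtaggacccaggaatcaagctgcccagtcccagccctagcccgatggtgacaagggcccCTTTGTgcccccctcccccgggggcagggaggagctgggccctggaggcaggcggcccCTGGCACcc
Cnp: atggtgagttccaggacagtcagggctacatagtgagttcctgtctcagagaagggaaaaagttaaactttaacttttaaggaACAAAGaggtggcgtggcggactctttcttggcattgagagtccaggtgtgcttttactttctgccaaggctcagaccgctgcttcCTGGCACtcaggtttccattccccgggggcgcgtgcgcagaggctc
Opalin: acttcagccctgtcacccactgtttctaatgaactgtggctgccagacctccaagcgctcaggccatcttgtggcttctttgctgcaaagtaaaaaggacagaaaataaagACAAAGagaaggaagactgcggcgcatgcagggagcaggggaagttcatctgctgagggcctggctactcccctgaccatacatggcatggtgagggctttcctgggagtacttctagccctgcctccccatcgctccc
Mobp: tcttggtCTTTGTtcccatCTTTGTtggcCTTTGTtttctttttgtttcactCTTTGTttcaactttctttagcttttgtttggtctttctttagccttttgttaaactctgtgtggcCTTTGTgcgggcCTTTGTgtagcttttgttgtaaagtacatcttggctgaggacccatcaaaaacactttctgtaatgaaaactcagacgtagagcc

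In the order given above, the first SOX string was in a window of 4 of the 8 genes (Opalin, Mag, Mobp and Cnp) and in 16.5% of all 32851 windows. The first MYRF string was in 2 of the 8 genes (Mag and Cnp) and in 4.19% of windows, and the second in 1 of the 8 (Mog) and in 1.83% of windows. The second SOX string was found for 1 of the 8, Ermn, and in 10.7% of windows. The E-box and the TATA box, in 13% and 12.4% of all windows, had no match in the members' windows. Among 33 genes of the wider oligodendrocyte list described further on that have a window, 7 held the first SOX string, 10 the second, 2 the first MYRF string, 1 the second, 7 the E-box and 4 the TATA box. Mal and Cldn11 had no match to any of the 6 strings. Genes with several windows, such as Mag, have more chances of a match.

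Gene counts per library totalled 30330382 to 56258370. Nnt, a gene with a deletion in C57BL/6J, served to check the strain labels and was at 34.3 to 44.1 CPM (counts scaled to library totals with TMM factors) in the 36 libraries labelled 6J and at 18.4 to 22.9 CPM in the 36 labelled 6NJ. Gabra2, known for low expression in C57BL/6J, was at 220 to 330 CPM under the label 6J and 91.2 to 159 CPM under 6NJ. Both go against the labels, so the strains are named by label throughout and every direction between strains is one between labels. Each library carries a code such as 32C, and the same 36 codes occur in DH and VH. The VH library labelled 6J, cue, code 32C stood apart in all 9 members, and results that rest on it are given with and without it.

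Levels between genes were compared as RPKM, here CPM per kilobase of the exon length in the deposited table. In DH, the median over 36 libraries was 506 RPKM for Mbp, 224 for Mobp, 137 for Mal, 125 for Cnp, 107 for Cldn11, 53.1 for Mog, 51.9 for Mag, 27.0 for Ermn and 14.3 for Opalin. The order of medians was the same in VH, at 289, 119, 73.8, 73.6, 56.7, 28.6, 28.2, 15.0 and 7.34 RPKM. Apart from 2 pairs, each gene lay above the next in all 36 libraries of both regions. Mal lay above Cnp in 33 of 36 DH libraries and 19 of 36 VH libraries, and Mog above Mag in 28 and 18, so the members of neither pair were in a steady order in VH. The 9 genes took a median of 0.693% of all counts in DH libraries labelled 6J and 0.794% in those labelled 6NJ. In VH these medians were 0.333% and 0.428%.

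**Figure D1:**
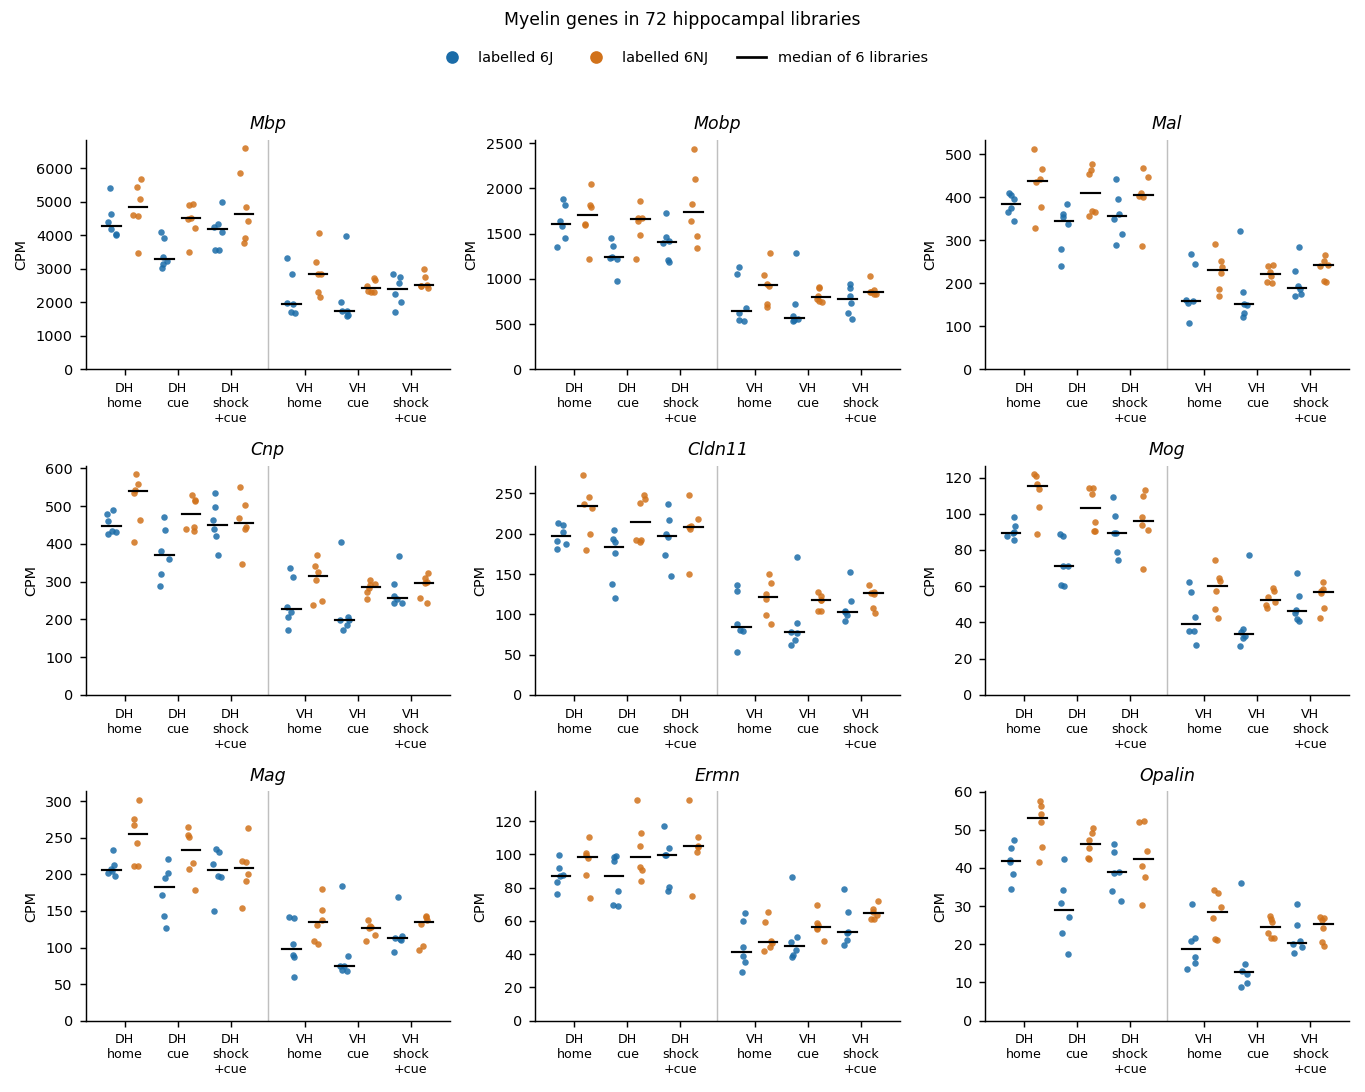
CPM of each myelin gene (linear axis from 0) in every library, by region, condition and strain label. Points are libraries and black lines are medians of 6; DH lies above VH for every gene, and 1 VH library labelled 6J in the cue condition (32C) stands above its group in each panel, at 3972 CPM for Mbp.

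All 9 myelin genes were higher in DH than in VH. Averaged over the 6 strain and condition groups, log2 fold changes ran from 0.75 ± 0.0580 (SE) for Cnp to 0.94 ± 0.0701 for Mobp, or 1.68-fold to 1.92-fold, with a median of 0.89 (edgeR, adjusted p at most 2.12e-15). Differences between the regions were common: 63.6% of all 20255 genes tested passed the threshold of an adjusted p of 0.05 in either direction, and the median of all genes was 0.0044.

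Mbp, the main basic protein, ranged from 3034 to 6599 CPM in DH with a median of 4285, and from 1597 to 4078 CPM in VH with a median of 2446 (n = 36 each). Only 4 VH libraries exceeded the lowest DH library, and the log2 fold change was 0.83 ± 0.0670 (adjusted p = 3e-17). Mog, the outer surface glycoprotein, was at 60.0 to 122 CPM in DH with a median of 90.5, and at 27.0 to 77.5 CPM in VH with a median of 48.8. In this gene 7 VH libraries lay above the lowest DH library. Opalin had the widest overlap, at 17.6 to 57.6 CPM in DH and 8.70 to 36.2 CPM in VH, with 28 VH libraries above the lowest DH library. The 3 lowest Opalin values in DH, 17.6 to 27.2 CPM, were those of codes 32A, 32B and 32C, all labelled 6J, cue.

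Set side by side by code, DH exceeded VH in 35 of 36 codes for each of the 9 genes. The exception was code 32C every time, with ratios of DH to VH of 0.708 (Cldn11) to 0.804 (Ermn). Median ratios over the codes were 1.78 (Cnp) to 2.10 (Mobp). Without the VH library 32C all 9 genes were still called, with a median log2 fold change of 0.93. The labels do not say that libraries with the same code came from the same mouse.

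**Figure D2:**
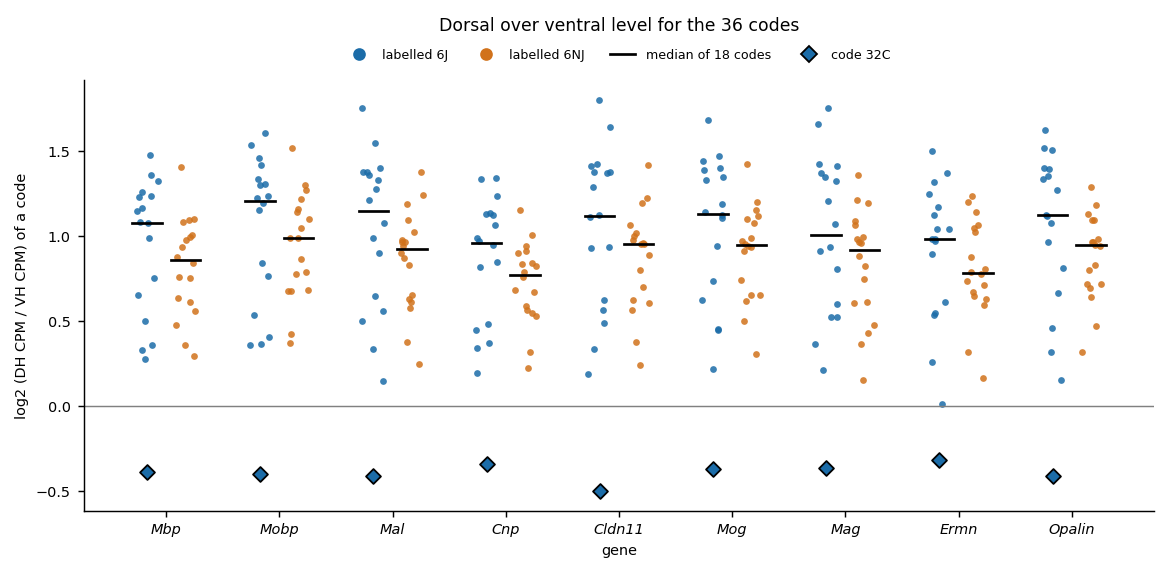
The log2 ratio of DH to VH CPM for each of 36 codes, by gene and strain label (lines, medians of 18 codes). Every code but 32C (diamonds) lies above 0 in every gene.

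Most other oligodendrocyte genes were also higher in DH. Of 45 further oligodendrocyte and myelin genes, 43 were higher in DH and 1, Dusp15, was lower, with a median log2 fold change of 0.70. Among these with the smallest p were Cd9 (0.61 ± 0.0400), a tetraspanin, Gjc3 (0.78 ± 0.0517), a gap junction connexin, Enpp6 (0.96 ± 0.0671), a marker of newly formed oligodendrocytes, and Tspan2 (0.75 ± 0.0524). Of 12 oligodendrocyte transcription factors 10 were higher and none lower (median 0.28), led by Zfp536 (0.47 ± 0.0287), Nkx6-2 (0.87 ± 0.0681), Myrf (0.73 ± 0.0584) and Sox10 (0.52 ± 0.0480). Precursor genes split evenly, with 6 of 13 higher and 6 lower and a median of -0.06. Vcan (0.26 ± 0.0325) was higher and Sox6 (-0.21 ± 0.0285) lower, as was the precursor marker Pdgfra (-0.15 ± 0.0348), with medians of 49.0 CPM in DH and 53.6 CPM in VH.

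Of 25 genes of cholesterol and lipid synthesis, which supply myelin membrane but are active in many cells, 6 were higher and 13 lower in DH (median -0.10). Cers2 (0.47 ± 0.0322), the synthase of very long chain ceramides, and Elovl1 (0.37 ± 0.0261), a fatty acid elongase, were among the higher, and Sqle (-0.24 ± 0.0258), an enzyme of sterol synthesis, among the lower. Genes of the mature cell were thus mostly higher in DH, while precursor and lipid synthesis genes went both ways.

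Markers of other tissue also differed between the regions. All 9 choroid plexus genes were higher in DH (median log2 fold change 1.76), as were 10 of 11 microglial genes (median 0.21) and 5 of 8 genes of the thalamus and neighbouring tissue, such as Prkcd (2.12 ± 0.108). The summed level of the 8 thalamic genes was 72.4 to 142 CPM in DH and 35.7 to 62.0 CPM in VH. Prkcd, with medians of 45.0 CPM in DH and 9.10 CPM in VH, and Plekhg1, with 37.1 and 17.7 CPM, weighed most in it. The medians of Lef1 (4.61 and 4.77 CPM) and Vipr2 (0.678 and 0.738 CPM) were not higher in DH. Neuron markers went both ways, with 2 of 12 higher and 6 lower. The 4 dorsal markers Lct, Lefty1, Wfs1 and Spink8, chosen with data in view, were all higher in DH, and 4 of 5 ventral markers were lower, Grp by 2.36 on the log2 scale. The part of neighbouring tissue in the regional difference was not tested.

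At the level of transcripts, 1 form of Mbp went the other way. Estimated counts were examined for the 27 transcripts of the 9 genes with a mean of at least 1 CPM in a region. In DH against VH, 26 of the 27 were higher and 1, Mbp-205, was lower, where 26.9% of all 60332 transcripts passed in either direction. Mbp-205 was at 43.4 to 61.2 CPM in DH, with a median of 49.6, and at 55.7 to 79.7 CPM in VH, with a median of 65.4. Of the 36 VH libraries, 32 lay above the highest DH library, and DH was below VH in 35 of 36 codes. The log2 fold change was -0.40 ± 0.0240 (adjusted p = 1.83e-22).

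Mbp-205 also starts elsewhere. In GENCODE, the Mbp gene (ENSMUSG00000041607, GRCm38 chromosome 18, 82475146 to 82585637, plus strand) has its most upstream start at 82475146, which is the start of Mbp-205 (4797 nt, protein coding). Mbp-211, the most abundant form, starts 79370 bases downstream, at 82554516. As background, the upstream start is the one used by the golli forms of Mbp, which are also made outside oligodendrocytes, and the downstream start gives the classic myelin basic proteins. Mbp-211 held a median of 61.0% of Mbp's estimated counts in DH labelled 6J and 59.6% in VH labelled 6J. The downstream forms Mbp-211, Mbp-212, Mbp-215, Mbp-216 and Mbp-204 had log2 fold changes between the regions of 0.87 ± 0.0748, 0.80 ± 0.0663, 0.85 ± 0.0730, 0.87 ± 0.0783 and 0.85 ± 0.0853.

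Mbp-205 varied little between libraries, with a coefficient of variation of 8.26% in DH and 7.61% in VH, against 20.3% and 27.9% for Mbp-211. Within groups, the levels of these 2 transcripts had a Pearson r of -0.23 in DH and -0.16 in VH (Spearman rho -0.26 and -0.16, 36 libraries each, sharing depth and library, given as a description). In the VH library 32C, where Mbp-211 stood at 2343 CPM, Mbp-205 was at 63.4 CPM, beside 63.5 to 70.9 CPM in the other 5 libraries of its group. A second transcript with an upstream start, Mbp-201 (start at 82475162), was higher in DH, at 6.64 ± 3.46 CPM against 2.69 ± 2.69 CPM (SD, n = 36 each), and was at 0 in some libraries. Transcripts of a gene share most of their sequence, so estimated counts can be exchanged between them.

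**Figure D3:**
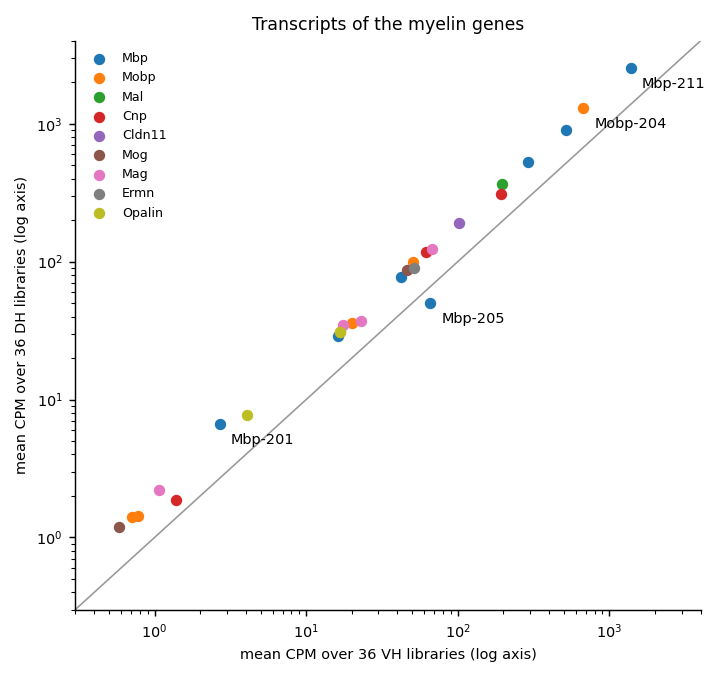
Mean CPM of the 27 transcripts in DH (vertical) against VH (horizontal), both on log axes, coloured by gene, with the line of equal levels. Mbp-205 alone lies below the line, at 49.8 CPM in DH and 65.9 CPM in VH.

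Mobp was made up mostly of Mobp-204, which GENCODE annotates as a target of nonsense-mediated decay and which held a median of 88.2% of the gene's estimated counts in DH labelled 6J. Its mean was 1298 ± 273 CPM in DH and 675 ± 175 CPM in VH (SD, n = 36 each). Mag was divided between Mag-203, at a median of 59.9% in DH labelled 6J and 66.5% in VH labelled 6J, and Mag-207 and Mag-201. The share of Mag-201 ran from 1.87% to 41.7% among DH libraries labelled 6J, so the division of Mag between forms was uncertain in single libraries. Opalin-201 held a median of 79.1% of Opalin in DH labelled 6J.

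Between strain labels, 8 of the 9 myelin genes were higher under the label 6NJ in DH. This is the mean of the 3 conditions, with 14.7% of all 19647 genes called in either direction. The log2 fold changes of the 9 ran from 0.17 (Ermn) to 0.37 (Opalin) with a median of 0.22, or 1.13-fold to 1.29-fold, while the median of all genes was -0.0053. In VH the estimates were of like size, from 0.18 (Ermn) to 0.41 (Opalin) with a median of 0.27, but only Opalin was called, where 9.92% of 19597 genes were. In VH 8 of the 9 had an unadjusted p under 0.05. The standard error for Mbp was 0.111 in VH and 0.0702 in DH. Under the label 6J, Mbp was at 2239 ± 674 CPM in VH, with library 32C included, and at 4017 ± 633 CPM in DH (SD, n = 18 each), a wider relative spread in VH. Under 6NJ it was at 2664 ± 448 CPM in VH and 4719 ± 824 CPM in DH, with like relative spreads.

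Opalin, a glycoprotein of differentiated oligodendrocytes, was at 17.6 to 47.4 CPM in 18 DH libraries labelled 6J, with a median of 38.5, and at 30.3 to 57.6 CPM in 18 labelled 6NJ, with a median of 46.3. The ranges overlapped, and 16 of 18 libraries labelled 6NJ lay above the median of those labelled 6J (log2 fold change 0.37 ± 0.0826, adjusted p = 0.00262). In VH it was at 8.70 to 36.2 CPM under 6J, with a median of 18.5, and at 19.5 to 34.2 CPM under 6NJ, with a median of 26.1. All 18 libraries labelled 6NJ were above the 6J median (0.41 ± 0.136, adjusted p = 0.0495). Mog in DH had the smallest p of the 9, at 60.0 to 109 CPM under 6J (median 88.4) and 69.7 to 122 CPM under 6NJ (median 107). Here 17 of 18 libraries labelled 6NJ lay above the 6J median (0.29 ± 0.0615, adjusted p = 0.00149).

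Of the basic proteins, Mbp was at 3034 to 5410 CPM in DH under 6J, with a median of 4066, and at 3476 to 6599 CPM under 6NJ, with a median of 4606 (0.24 ± 0.0702, adjusted p = 0.0182). Mobp had medians of 1409 CPM under 6J and 1657 CPM under 6NJ (0.26 ± 0.0736, adjusted p = 0.0153). For both, 14 or 15 of the 18 libraries labelled 6NJ were above the 6J median. The remaining called genes in DH were Mal (0.22 ± 0.0675, adjusted p = 0.0225), Mag (0.22 ± 0.0729, adjusted p = 0.0369), Cldn11 (0.21 ± 0.0710, adjusted p = 0.0398) and Cnp (0.18 ± 0.0601, adjusted p = 0.0344). Ermn, a cytoskeletal protein of the mature cell, was not called (0.17 ± 0.0718, adjusted p = 0.104). Ranges of the strain labels overlapped for every gene in both regions.

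The count of called members depended on the processing and on a few libraries. Shares of all genes called are not given for these other fits, so changes in the count are not shown to be particular to the members. Without the low-count filter it was 5 in DH and 0 in VH, so that Opalin in VH was no longer called, and limma-voom called 7 in VH. Leaving out the VH library 32C raised it in VH from 1 to 8, with a median log2 fold change of 0.37 and Mog at 0.42. The 2 exclusions moved the VH values in opposite directions. Leaving out the 6 codes with Lcn2, an acute phase gene, above 2 CPM in both regions, all labelled 6J, lowered it in DH from 8 to 3, with a median of 0.26, and in VH from 1 to 0, with a median of 0.17. Opalin in VH then stood at 0.18 (adjusted p = 0.501). This exclusion leaves 2 libraries in the cue group labelled 6J of each region, and 32C is among them.

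**Figure D4:**
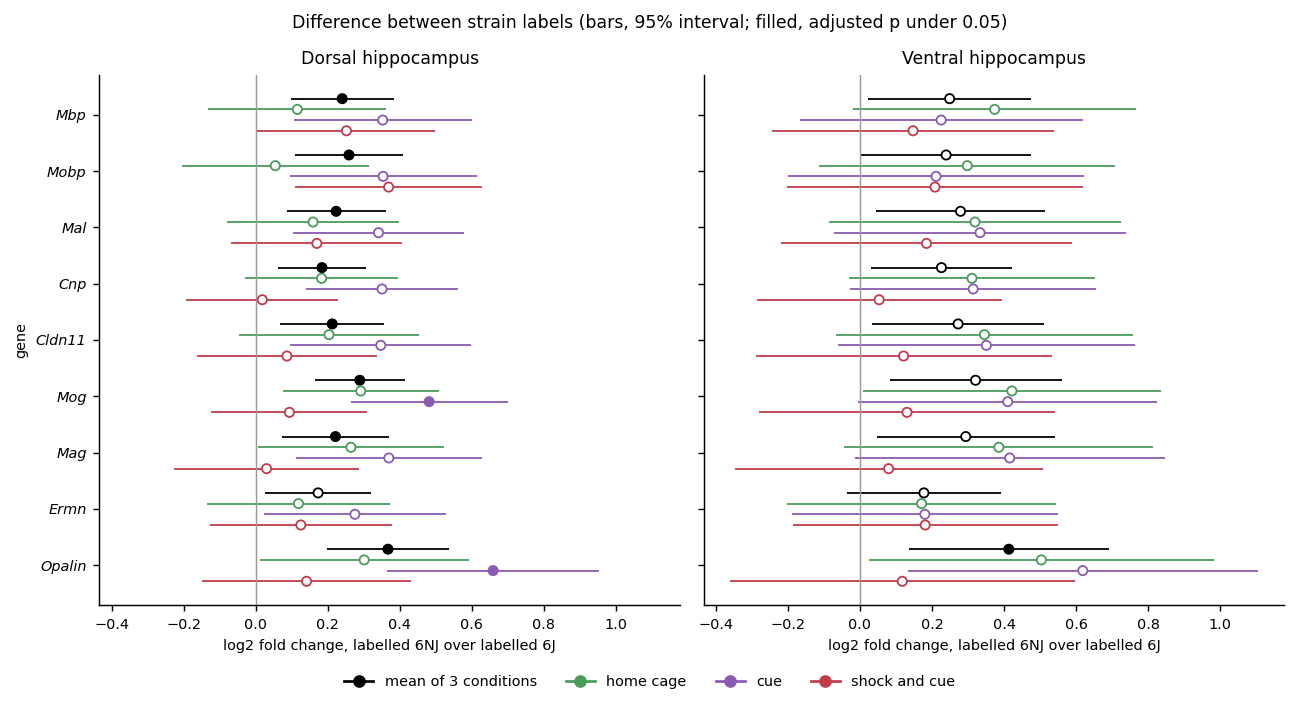
Log2 fold change of each gene, labelled 6NJ over labelled 6J, in DH and VH, for the mean of the conditions and for each condition (bars, 95% intervals; filled points, adjusted p under 0.05). All points lie above 0; the filled ones are 8 means in DH, Mog and Opalin after the cue in DH, and the mean of Opalin in VH.

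The difference between labels was not shown to depend on region. The interaction of strain label with region gave log2 values from -0.07 to 0.02 for the 9 genes, none called, where 0.00494% of all genes were called. Mbp had an interaction of -0.01 ± 0.133 and Opalin of -0.05 ± 0.159. Calls in the separate fits of DH and VH are therefore no evidence of a difference between the regions.

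Of the 45 further oligodendrocyte and myelin genes, 19 were higher under 6NJ and none lower in DH (median log2 fold change 0.17), and 5 were higher and none lower in VH (median 0.18). Of all genes tested, 14.7% were called in DH and 9.92% in VH, so the count of 5 in VH was near the share of all genes. The estimate was above 0 for all 45 in both regions. Klk6, a protease of oligodendrocytes, had log2 fold changes of 0.70 ± 0.132 in DH and 0.72 ± 0.217 in VH. Its level was low, with medians of 1.21 CPM in DH and 0.443 CPM in VH. Tspan2 (0.22 ± 0.0523), Sema4d (0.16 ± 0.0399) and Efnb3 (0.13 ± 0.0329) were called in DH, and Gsn (0.30 ± 0.0878), Pllp (0.28 ± 0.0886) and S1pr5 (0.32 ± 0.102) in VH. Of the 12 transcription factors, Nkx6-2 (0.22 ± 0.0673) and St18 (0.18 ± 0.0591) were higher in DH, and Zfp536 (0.17 ± 0.0428) and Nkx6-2 (0.36 ± 0.116) in VH.

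None of the 13 precursor genes was called higher and 1, Vcan, was lower under 6NJ in both DH (-0.14 ± 0.0469) and VH (-0.16 ± 0.0428), with list medians of -0.08 and -0.03. In DH only 4 of the 13 had an estimate above 0, and 8 had an unadjusted p under 0.05 in edgeR. Of 25 cholesterol and lipid genes, Hmgcs1 (0.14 ± 0.0417) and Cyp51 (0.14 ± 0.0372), both of sterol synthesis, were higher in DH and Fasn was lower (-0.08 ± 0.0284). In VH 2 of the 25 were higher, Hmgcs1 (0.11 ± 0.0378) among them, and none lower. For other cell types in DH, 3 of 11 astrocyte genes and 2 of 8 endothelial genes were lower, no microglial gene of 11 was called, and 1 of 12 neuron genes was higher and 1 lower. The estimate was above 0 for 3 astrocyte, 1 endothelial, 2 microglial and 6 neuron genes. An unadjusted p under 0.05 in edgeR was found for 6, 2, 3 and 3 genes of these lists.

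Among tissue markers, 1 of 8 thalamic genes, Synpo2, was lower under 6NJ in DH (-0.19 ± 0.0583). Summed levels of the 8 thalamic genes had medians of 101 CPM under 6J (81.6 to 142) and 97.8 CPM under 6NJ (72.4 to 124). Those of the 9 choroid plexus genes had medians of 934 and 509 CPM but ran from 41.7 to 8983 CPM over all DH libraries, and none of the 9 was called. Of 10 neocortical genes 3 were lower under 6NJ (median -0.17): Rorb, Foxp2 and Cux2. In VH the summed thalamic genes had medians of 44.4 CPM under 6J and 43.0 CPM under 6NJ, and the 5 ventral markers 169 and 146 CPM, with none of them called. The part of these markers in the difference between labels was not tested.

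Among the transcripts, 4 of 27 were higher under 6NJ in DH, where 2.9% of all 56523 transcripts were called, and DESeq2 called 10. They were Mog-201 (0.31 ± 0.0630, adjusted p = 0.00383), Opalin-201 (0.41 ± 0.0883, adjusted p = 0.00585), Mobp-206 (0.37 ± 0.0819, adjusted p = 0.00736) and Mobp-204 (0.28 ± 0.0789, adjusted p = 0.0431). None of the 27 was called in VH, where 2.18% of transcripts were. Mbp-205 had values of 0.06 ± 0.0336 in DH and 0.05 ± 0.0342 in VH, beside 0.26 ± 0.0790 and 0.26 ± 0.123 for Mbp-211, and neither was called.

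After the cue, Opalin was 1.58-fold higher under 6NJ in DH (0.66 ± 0.144, adjusted p = 0.00944) and Mog 1.40-fold (0.48 ± 0.107, adjusted p = 0.0101), where 2.72% of genes were called. All 9 members had an unadjusted p under 0.05, and a fit of only the groups compared called 0 of them. Opalin was then at 17.6 to 42.2 CPM in the 6 libraries labelled 6J (median 29.0) and at 42.2 to 50.4 CPM in the 6 labelled 6NJ (median 46.2), and the 2 ranges met at 42.2 CPM. Mog was at 60.0 to 88.9 CPM under 6J (median 71.2) and at 90.2 to 114 CPM under 6NJ (median 103), with no overlap. Under 6J, codes 32A, 32B and 32C were at 17.6 to 27.2 CPM for Opalin and 60.0 to 71.3 CPM for Mog. Codes 34A, 34B and 34C were at 30.9 to 42.2 CPM for Opalin and 71.2 to 88.9 CPM for Mog. Medians of the 9 log2 fold changes in DH were 0.18 in the home cage, 0.35 after the cue and 0.13 after shock and cue. No member passed in the home cage or after shock and cue in edgeR, where 0.931% and 2.14% of genes did, and 3 and 2 members had an unadjusted p under 0.05.

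In VH the medians by condition were 0.35, 0.33 and 0.13, and no member passed. The shares of all genes called were 1.35% in the home cage, 1.76% after the cue and 0.771% after shock and cue, and 2, 1 and 0 members had an unadjusted p under 0.05 in edgeR. Without the library 32C, 5 members passed after the cue in VH, with a median of 0.60. Without the codes with high Lcn2, which leaves 2 libraries labelled 6J, 32C among them, that median was -0.04 and none passed. Without the codes with high Lcn2 no member passed after the cue in DH, where the median was 0.41. There too the exclusion leaves 2 libraries labelled 6J.

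In DH labelled 6J, Opalin was lower after the cue than in the home cage (-0.50 ± 0.145, adjusted p = 0.0330), where 5.89% of genes were called. It was at 34.5 to 47.4 CPM in the home cage (median 41.8) and at 17.6 to 42.2 CPM after the cue (median 29.0). After the cue, codes 32A, 32B and 32C were at 17.6 to 27.2 CPM and codes 34A, 34B and 34C at 30.9 to 42.2 CPM. Code numbers such as 32 were not shared between conditions, and their part in the difference was not tested. The other 8 genes had values from -0.38 (Mobp) to -0.04 (Ermn), so all 9 were below 0, with a median of -0.27, and 5 of the 9 had an unadjusted p under 0.05. Mbp was at 4024 to 5410 CPM in the home cage (median 4290) and at 3034 to 4102 CPM after the cue (median 3303), 2 ranges that overlapped slightly (-0.36 ± 0.122, adjusted p = 0.0768). Of the 45 other oligodendrocyte genes 4 were lower and none higher. The count of 1 called member was not stable: it was 0 without the low-count filter, 2 with only the groups compared, and 4 with DESeq2 and with limma-voom. Without the codes with high Lcn2, which leaves 2 cue libraries, no member passed, with a median of -0.30.

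Shock and cue against the home cage called no member in DH labelled 6J, where 1.76% of genes were called, and the median was -0.04. For DH labelled 6NJ no member was called after the cue (2.36% of genes; median -0.10) or after shock and cue (3.57%; median -0.14). The VH groups also gave a count of 0. There, the shares of all genes called were 12.8% (6J, cue), 3.11% (6J, shock and cue), 12.9% (6NJ, cue) and 8.65% (6NJ, shock and cue), and the myelin genes had medians of -0.11, 0.18, -0.13 and -0.09. With such shares, a count of 0 of 9 is not particular to the members. Of the members, 1 had an unadjusted p under 0.05 in edgeR, for shock and cue in DH labelled 6NJ, and 0 in the other 6 of these comparisons. The comparisons within a region and label share their home cage libraries. Without the VH library 32C, 1 member was called in VH labelled 6J after the cue, with a median of -0.36, and without the codes with high Lcn2 none was, with a median of 0.40. The latter fit leaves 2 cue libraries there, 32C among them.

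Between shock with the cue and the cue alone, and for the interaction of strain label with either response, no member was called in either region. In these 8 comparisons 0% of genes were called by edgeR. The members with an unadjusted p under 0.05 were 4 in DH labelled 6J for shock with the cue against the cue, where the median was 0.21, and 0 in the other 7. The interaction for the cue in DH had a median of 0.18 and was largest for Opalin at 0.36 ± 0.202. A differing response to the cue was thus not shown with 6 libraries a group.

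Within groups, the 9 genes varied together. After subtracting group means, Pearson r of log2 CPM between pairs of members ran from 0.49 to 0.99 in DH, with a median of 0.79, and from 0.76 to 0.99 in VH, with a median of 0.90 (36 pairs and 36 libraries each). Spearman rho had medians of 0.79 and 0.86. The closest pair in both regions was Mal and Cldn11 (0.99 in DH and VH), followed by Mog and Cnp (0.96 and 0.99). Mbp and Mobp were close in both regions, at 0.95 and 0.98, and the lowest pair in DH was Mbp and Mag at 0.49. In DH the basic proteins thus followed each other more closely than they followed the adhesion protein Mag. These values share library and depth and are given as a description.

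**Figure D5:**
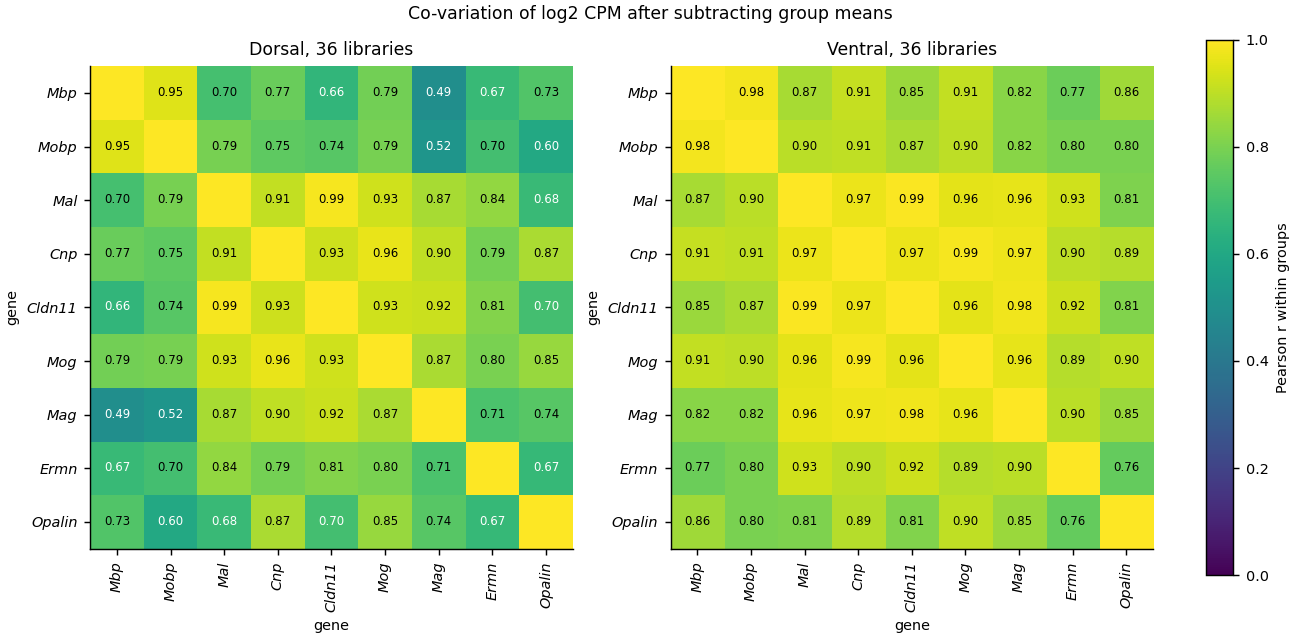
Pearson r between members after subtracting group means, over 36 libraries in DH (left) and VH (right), from 0 (dark) to 1 (light). The lowest square is Mbp with Mag in DH, 0.49.

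Of 19261 other genes ranked by the lower of the 2 regional r with the mean of the members, the 10 highest included Tspan2 (0.95), Frmd8 (0.95), Tmem88b (0.94), Gatm (0.94), Prr5l (0.94), Litaf (0.94), Nkx6-2 (0.92), Gltp (0.91) and Lpar1 (0.90), each over 36 libraries per region. Of those named, Tspan2, Tmem88b, Prr5l, Gltp and Lpar1 are in the list of 45 oligodendrocyte genes and Nkx6-2 is among the transcription factors. Frmd8, Gatm and Litaf are in none of the lists.

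Levels in DH and VH were also set against each other by code. Pearson r between the DH and VH libraries of a code, within groups, ran from -0.42 for Cldn11 to 0.14 for Opalin over 36 codes (Spearman rho -0.39 and 0.12), and was below 0 for the other 7 genes. Without the 2 codes farthest from the median in DH the values were -0.27 and 0.02.

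In VH, the members' summed level moved with some regional markers and not with others. Within groups it had a Pearson r of -0.61 with the 5 ventral markers, 0.58 with the 8 thalamic genes and 0.60 with the 12 neuron markers (36 libraries, Spearman rho -0.58, 0.54 and 0.61), and without the 2 libraries farthest in each list the values were -0.57, 0.44 and 0.59. The DH values were -0.23, 0.27 and 0.14. With the 4 dorsal markers r was 0.18 in VH and with the 10 neocortical genes 0.15 (Spearman rho 0.23 and 0.13), or 0.13 and 0.18 without the 2 farthest libraries. These are values of sums, in which abundant genes weigh most, and the thalamic and neuron lists did not move as a whole. In VH the r of single genes with the mean of the members was 0.62 for Plekhg1 and 0.58 for Prkcd. It was -0.07 for Lef1 and 0.03 for Ramp3, also thalamic genes. Of the neuron markers, Snap25 was at 0.63 and Map2 at -0.54. The summed ventral markers were at 112 CPM in the VH library 32C, where the range was 80.4 to 217 CPM over all VH libraries, and its thalamic sum of 62.0 CPM was the highest in VH. The lowest sums of ventral markers in VH were 85.2 CPM under 6J, in library 35B, and 80.4 CPM under 6NJ, in library 41B. Mbp was at 2842 CPM in 35B and at 3217 CPM in 41B, where its range was 1597 to 4078 CPM over all VH libraries. The 6 Schwann cell genes, whose sum was only 8.80 to 17.5 CPM in VH, had an r of -0.64. The summed precursor genes had an r of -0.15 in DH and -0.24 in VH with the members, and the summed microglial genes 0.03 and 0.14. Single precursor genes went both ways in their r with the mean of the members. Cacng4 was at 0.33 in DH and 0.28 in VH, and the more abundant Ptprz1 at -0.09 and -0.21. The part of dissection in the spread of the myelin genes was not tested.

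The member genes lie on 8 chromosomes of GRCm38, and the spans in the deposited table were those of GENCODE vM21. Mog (ENSMUSG00000076439) is on chromosome 17, 37010743 to 37023398, and Opalin (ENSMUSG00000050121) on chromosome 19, 41061710 to 41077113, both on the minus strand. Mag (ENSMUSG00000036634, chromosome 7, 30899176 to 30914873), Mal (ENSMUSG00000027375, chromosome 2, 127633226 to 127656695) and Ermn (ENSMUSG00000026830, chromosome 2, 58045113 to 58052864) are also on the minus strand. Mobp (ENSMUSG00000032517, chromosome 9, 120149707 to 120181484), Cnp (ENSMUSG00000006782, chromosome 11, 100574904 to 100591729) and Cldn11 (ENSMUSG00000037625, chromosome 3, 31149920 to 31164324) are on the plus strand. Ermn overlaps Galnt5, Cnp overlaps Dnajc7, Mog overlaps Gm22388 and Mbp overlaps Rpl21-ps8, each on the opposite strand, and Mobp overlaps Gm38642 on its own strand. The strand setting of the counting is not given in the sources used here, so reads of these pairs could be divided between them.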

How the data were processed

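Bulk RNA of 72 libraries was analysed from 2 deposited tables. The labels' protocols name Trizol, column purification and a stranded mRNA kit with 75 bp single-end reads. The authors deposited whole-number read counts per gene, and the submitters' processing notes name FastQC, HISAT2, featureCounts, kallisto, DESeq2 and GRCm38, without versions. The second deposited table holds estimated counts per transcript, which were rounded here. Groups came from the labels. Whether libraries of a group are separate mice is not stated there, and the p-values therefore cover only the spread among libraries, which may be technical.

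The count test was that of edgeR 4.0.16, run in R 4.3.3 (TMM, filterByExpr, quasi-likelihood F-test), with 1 mean per group, 36 libraries of a region fitted together (72 between regions), and Benjamini-Hochberg adjustment over all genes tested, with a threshold of 0.05. Every adjusted p is from this test unless stated. The script was tested on simulated data. SE is the log2 fold change over the square root of F. Correlations used log2 CPM with a prior count of 2, and transcript correlations a pseudocount of 0.5. Symbols matched 55141 of 55401 identifiers.

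The alternatives tried were size factors by RLE, testing without a filter on low counts, a filter at a mean of 1 CPM, DESeq2 1.42.0, limma-voom (limma 3.58.1) with code numbers as random effects, only the groups compared, and the code as a block. Leaving out the codes with high Lcn2, DH library 40A or VH library 32C was chosen after seeing the data. Genes named from a list were at most the 4 with the smallest p among those called, or the most abundant. The members, lists and tests were chosen with earlier results of these data known, and the dorsal and ventral markers after seeing these values. Results for a few genes are not reported here.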

Additional observations from a re-analysis of the deposited data

Results flagged for a closer look

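In 12 of 108 combinations of gene and group, 1 library stood apart from the other 5 of its group by a gap that was large against the group's range. Chance flags about 1 in 20 groups, and the genes are not independent. Of the 12, 9 were the VH library labelled 6J, cue, code 32C, which was the highest of its group in every member: 3972 CPM for Mbp, 77.5 for Mog, 36.2 for Opalin, 184 for Mag, 1288 for Mobp, 404 for Cnp, 321 for Mal, 171 for Cldn11 and 86.7 for Ermn. The others were Mag in the VH library 31B labelled 6J, shock and cue, at 169 CPM, Mobp in the VH library 39C labelled 6NJ, shock and cue, at 1028 CPM, and Mal in the DH library 37A labelled 6NJ, shock and cue, the lowest of its group at 287 CPM.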

How the results depend on the processing

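Of 215 recomputed counts of called members or transcripts, 197 stayed within 1.5 times the count reported and 18 did not, and of 216 single-gene results 193 kept their side of the threshold, 10 lost the call and 13 gained one. No direction reversed in these 216, and medians of the members in single conditions are not among them. Without the codes with high Lcn2, the VH median between labels after the cue changed sign, as given above. So did that of the cue against the home cage in VH labelled 6J. The share of all genes called is not given for the alternatives, so the counts below are not shown to be particular to the members. Without a low-count filter, the members called between strain labels were 5 in DH and 0 in VH, and 0 for the cue against the home cage in DH labelled 6J. DESeq2 called 4 members for the cue against the home cage in DH labelled 6J and 10 transcripts between strain labels in DH. The limma-voom fit (code numbers as random effects) called 4 in the former, 7 between strain labels in VH and 1 between labels after the cue in VH. Fits of only the groups compared gave 0 between labels after the cue in DH, 2 for the cue against the home cage in DH labelled 6J and 1 for shock and cue against the home cage in VH labelled 6NJ. Without the codes with high Lcn2, the counts were 3 between labels in DH, 0 in VH, 0 after the cue in DH and 0 for the cue in DH labelled 6J. Without the VH library 32C they were 8 between labels in VH, 5 after the cue in VH and 1 for the cue in VH labelled 6J. The cause of these changes was not tested, except that leaving out libraries leaves fewer samples. Leaving out the DH library 40A moved no count beyond 1.5 times. With the code as a replicate block, which joins the DH and VH libraries of 1 code, no call changed: 9 of 9 members were called between regions with a median of 0.92, 0 for strain label by region, and 27 of 27 transcripts. Not every code met the criterion for pairing, and the main fit did not pair them. The within-group correlation of a code's 2 libraries over 19270 genes ran from -0.19 to 0.37 (median 0.11) and was over 0.1 in 21 of 36 codes. Among the 6 VH libraries of its group, a DH library was best correlated with that of its own code in 17 of 36 codes. These values do not settle whether the libraries of a code came from the same mouse. At these depths the least abundant member had 8.70 CPM in its lowest library, so the spread between libraries and not the count limits the values.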
